A study of Mus musculus with 9 samples.

Results

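RNA of 9 genes that drive or restrain entry into the cell cycle was followed across 9 mouse breast tumours. The genes were Myc, Mycn, Ccnd1, Ccnd2, Cdk4, Cdk6, Cdkn2a, Cdkn2b and Rb1, chosen by name as MYC factors, D cyclins with their kinases, and tumour suppressors often altered together with p53 in breast cancer. They were 9 of the 49585 gene rows of the count table, and all 9 were among the 19606 genes with enough counts to be tested.

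The tumours were spontaneous breast adenocarcinomas, of which 6 were labelled AAV-delta-mut-p53, where adeno-associated virus (AAV) was meant to delete mutant p53, and 3 were labelled AAV-Control. All 9 had the same genotype, made up of K14-Cre, a Trp53 locus written wm-R172H/fl, and a Cre-dependent CAS9-P2A-EGFP cassette at Rosa26 in the heterozygous state. AAV was given on days 0, 3 and 8 in both groups, and tumours were taken when the animals met euthanasia criteria. Ages and the interval from the last dose to collection are unknown here. K14-Cre acts in keratin 14-positive epithelium, so Cas9 is switched on in cells of that lineage, whereas the RNA came from whole frozen tumour. The label does not say which cells carry R172H. Tumours AAV-delta-mut-p53 4 and 5 share a title number, and the labels do not say whether they grew in 1 animal. The p-values below set a difference between the groups against the spread between tumours. They treat all 9 tumours as independent, numbers 4 and 5 included.

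Total counts were 18581545 to 24567423 in AAV-delta-mut-p53 tumours, against 26280250 to 30953250 in AAV-Control tumours. Trp53, the targeted gene, was at 32.4 ± 11.9 CPM in AAV-delta-mut-p53 tumours, against 43.4 ± 4.71 CPM in AAV-Control tumours (SD, n = 6 and 3), and was not called (log2 fold change -0.42, edgeR FDR = 0.780). Counts per gene do not show whether a transcript was edited. CPM is a gene's count as a share of its library, scaled so that every library has the same total, with TMM factors, and group means are given ± SD over 6 and 3 tumours. AAV-delta-mut-p53 2 stood apart, with a summed 38200 CPM of 7 skeletal muscle markers, against 21 to 337 CPM in each of the other 8 tumours. Its 8 epithelial markers summed to 259 CPM, against at least 1560 CPM in each other tumour, so the label of breast adenocarcinoma was poorly matched by the markers of that sample. Its 5 fibroblast markers summed to 7730 CPM. Values below include it unless stated, and values without it are given for the 9 genes, the D cyclin sum and the targets of MYC and E2F. In RNA from whole tumours, fewer cells of a type and less RNA per cell cannot be told apart.

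MYC and MYCN are transcription factors that pair with MAX, bind E-box sequences and raise the output of genes for growth, ribosome production and metabolism. Cyclin D1 and cyclin D2 activate the kinases CDK4 and CDK6, which phosphorylate the retinoblastoma protein RB and release E2F factors to switch on genes for DNA replication. The INK4 proteins made from Cdkn2a and Cdkn2b block those kinases, and another protein of Cdkn2a, ARF, blocks MDM2 and so protects p53. In breast cancer cyclin D1 and MYC are common targets of gene amplification, and cyclin D1 with CDK4 is needed for some forms of mouse mammary cancer.

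The DNA just ahead of Cdk4 and Mycn is printed because these were the 2 of the 9 genes with 3 or more matches to the letters that MYC or E2F factors bind. Stretches are from the RefSeq promoter table on GRCm38.p6, written 5′ to 3′ on the gene's strand. The motifs searched on both strands of the 250 bases before the start were the E-box CACGTG, which MYC with MAX can bind, and TTTNGCGC, a form of the E2F site. Capitals mark the matches.
Cdk4, chr10:127063343-127063533, plus strand: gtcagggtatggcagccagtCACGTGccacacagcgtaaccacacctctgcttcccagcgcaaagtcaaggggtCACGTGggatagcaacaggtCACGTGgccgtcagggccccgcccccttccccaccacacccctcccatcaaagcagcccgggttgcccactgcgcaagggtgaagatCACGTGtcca
Mycn, chr12:12941977-12942039, minus strand: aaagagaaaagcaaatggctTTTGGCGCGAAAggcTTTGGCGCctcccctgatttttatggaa
Cdk4 had 4 E-boxes, which began 172, 118, 98 and 11 bases before its start. Of 32851 promoter windows 6.02% held at least 1 E-box, and 7 windows held 4 or more. Mycn had 3 matches to the E2F letters, at 183, 179 and 168 bases before its start, the first 2 overlapping on opposite strands. At least 1 such match was present in 1.13% of windows, and 8 windows held 2 or more. Cdk6 had 1 E-box, 220 bases before its start, Cdkn2b had neither motif, and of the pair of Cdkn2a windows the INK4A one had 1 E2F match, at 244 bases. The table gave 6 windows for 5 of the 9 genes, and Myc, Ccnd1, Ccnd2 and Rb1 were not searched. A match to the letters is a description of the sequence and not a measured binding site.

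None of the 9 genes was called between the groups by edgeR's quasi-likelihood test at a false discovery rate (FDR) of 0.05. Across all 19606 genes tested, 0.00% were called, and the smallest FDR of any gene was 0.677. At an unadjusted p under 0.05, edgeR had 2 of the 9 genes, Ccnd2 and Rb1, against 7.07% of all genes. DESeq2 called 0.553% of the 18806 genes it adjusted, and 0 of the 9. It placed 3 of them at an unadjusted p under 0.05, Ccnd2, Cdk6 and Rb1, against 10.2% of those 18806 genes. A further test, limma voom with quality weights, called 0 genes. It placed 3 of the 9 at an unadjusted p under 0.05, Mycn, Ccnd2 and Rb1, against 2038 of all 19606 genes. For 0 of the 9 genes were the 6 AAV-delta-mut-p53 tumours all above or all below the 3 AAV-Control tumours, which was so for 3.06% of all genes. The exact 2-sided permutation test over the 84 ways of choosing 3 tumours among 9 gave 0 of the 9 genes a p under 0.05, against 5.47% of all genes, where the smallest p it can give is 0.0119. In AAV-delta-mut-p53 tumours 5 of the 9 genes were higher and 4 were lower, and their median log2 fold change was 0.035, against 55.6% higher and a median of 0.088 for all genes.

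Without AAV-delta-mut-p53 2 none of the 9 genes was called either, at a smallest FDR of 0.533 by edgeR, where 0 of all genes were called and 1687 were at an unadjusted p under 0.05. Then 6 of the 9 were higher, because Cdk4 turned from -0.02 to 0.09 on the log2 scale, and the median log2 fold change was 0.186, against 53.3% higher and 0.05 for all genes. Myc was at 0.19 and Cdk6 at 1.57 without that tumour, and the negative values of Mycn and Ccnd2 were -2.09 and -0.95. Cdkn2a was at 0.86, Cdkn2b at 1.09 and Rb1 at 0.87, each near its value with all 9 tumours.

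**Figure D1:**
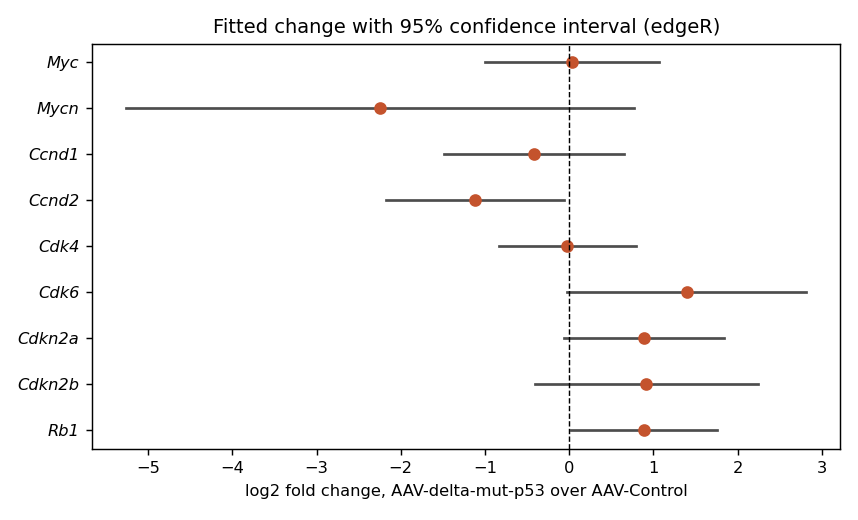
Log2 fold change of each gene, AAV-delta-mut-p53 over AAV-Control (dots), with its 95% confidence interval from edgeR (lines). The intervals of Ccnd2 (-2.17 to -0.07) and Rb1 (0.02 to 1.76) leave out 0 before adjustment over 19606 genes, and the longest interval is that of Mycn.

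Myc, on chromosome 15 from 61985391 to 61990374 (GRCm38, GENCODE M21 positions throughout), was expressed in every tumour. It was at 142, 62.2, 211, 193, 115 and 53.3 CPM across AAV-delta-mut-p53 1 to 6, against 115, 178 and 86.5 CPM in AAV-Control 1 to 3. The control values lay inside the range of the AAV-delta-mut-p53 tumours, whose lowest members were numbers 2 and 6. The log2 fold change was 0.035 (SE 0.47, edgeR FDR = 0.988), with a 95% interval from -0.999 to 1.07. Its sign turned when single tumours were left out, from -0.18 without AAV-Control 3 to 0.37 without AAV-Control 2. In AAV-delta-mut-p53 6, where Myc was lowest at 1.11 below its median on the log2 scale, 6 of its 10 nearest tested protein-coding genes were more than 0.5 above theirs.

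Mycn, the MYC gene best known as amplified in human neuroblastoma, varied most among the 9 genes. It lies on chromosome 12 from 12936093 to 12941914. It was at 1.98, 2.40, 0.147, 2.01, 22.2 and 0.0815 CPM across AAV-delta-mut-p53 1 to 6, against 42.8, 1.70 and 24.0 CPM in AAV-Control 1 to 3. High values were found in AAV-delta-mut-p53 5 and in AAV-Control 1 and 3, and the groups overlapped. The counts behind the lowest values were 3 and 2 reads, in AAV-delta-mut-p53 3 and 6, and those behind the 3 high values were 502, 1218 and 605 reads. With exact Poisson intervals, which cover counting error only, AAV-delta-mut-p53 3 and 6 held 0.0302 to 0.428 CPM and 0.00987 to 0.294 CPM. The spread of Mycn over the 9 tumours was a standard deviation of 2.84 on the log2 scale. This was above that of 99.1% of tested protein-coding genes averaging 1 CPM or more. AAV-delta-mut-p53 4 and 5, the pair with the shared title number, were on either side of this divide.

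The mean of Mycn was 4.81 ± 8.59 CPM in AAV-delta-mut-p53 tumours, against 22.8 ± 20.6 CPM in AAV-Control tumours (SD, n = 6 and 3). The log2 fold change of -2.25 (SE 1.36, edgeR FDR = 0.693, exact permutation p = 0.143) was the largest in size among the 9 genes and the least certain. It was -4.09 without AAV-delta-mut-p53 5 and -1.42 without AAV-Control 1. Single neighbours of Mycn lay far from their own 9-tumour medians on the log2 scale, such as Kcns3 (2.2 in AAV-Control 1) and Fam84a (-2.3 in AAV-Control 3). Mycn itself deviated by 4.36 and 3.52 there. The 10 tested protein-coding genes nearest to Mycn had a median deviation of -0.15, 0.15 and -0.03 in AAV-delta-mut-p53 5, AAV-Control 1 and AAV-Control 3. Ddx1, an RNA helicase gene 275.1 kb away that is often co-amplified with MYCN in human neuroblastoma, deviated from its own median by -0.07, -0.15 and 0.43 in those tumours. Per kilobase of exon, Mycn supplied 13.8%, 23.6% and 18.6% of the summed Myc and Mycn level there, and at most 3.09% in the other 6 tumours.

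**Figure D2:**
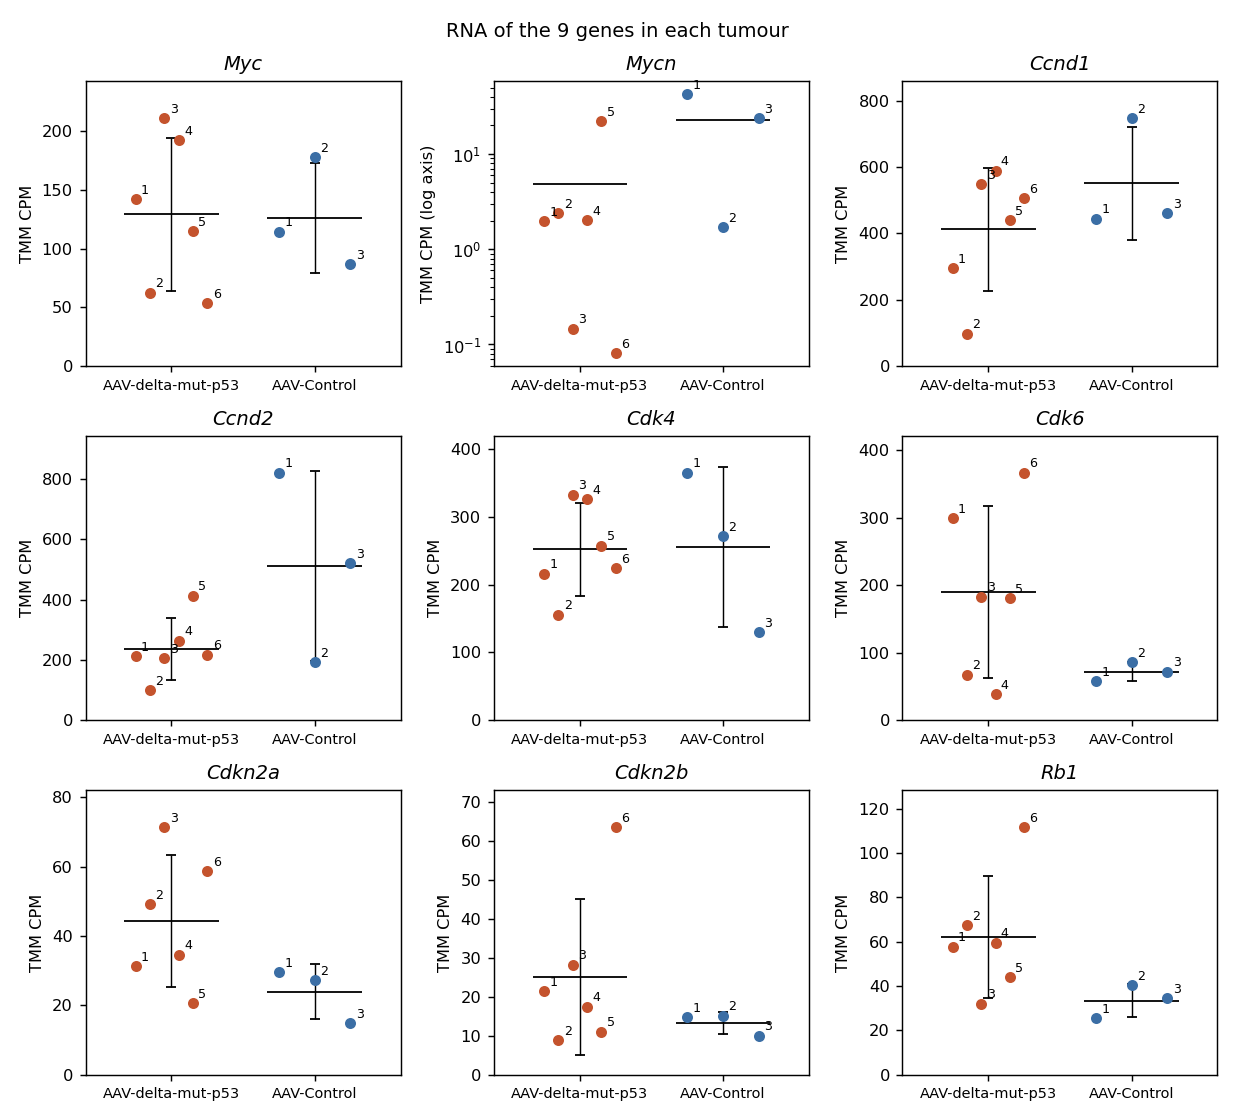
TMM CPM of each gene in the 6 AAV-delta-mut-p53 tumours (left) and the 3 AAV-Control tumours (right), with tumour numbers beside the points, horizontal lines at the group means and bars of 1 SD. Mycn is on a log axis without SD bars. The groups overlap in all 9 panels, and in Cdk6 4 AAV-delta-mut-p53 tumours sit at 181 CPM or more while the controls sit at 58.2 to 85.7 CPM.

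Among 11 tested partners and antagonists of MYC, 1 had groups that did not overlap, which was so for 3.06% of all genes. Mycl, the third MYC gene, was at 4.63, 4.48, 0.830, 3.24, 2.92 and 15.6 CPM across AAV-delta-mut-p53 1 to 6, against 43.2, 42.7 and 17.2 CPM in AAV-Control 1 to 3. Every AAV-delta-mut-p53 tumour was below every AAV-Control tumour, although the highest of them, number 6, came within a short distance of AAV-Control 3. The log2 fold change was -2.70 (SE 0.70), and it did not pass edgeR's test over all genes (FDR = 0.677, unadjusted p = 0.00299). Of the 11, 4 had a higher and 7 a lower mean, at a median log2 fold change of -0.18 and 0 calls. Mxd4, a repressor that competes for MAX, averaged 105 ± 12.4 CPM in AAV-delta-mut-p53 tumours, against 149 ± 49.2 CPM in AAV-Control tumours (SD, n = 6 and 3). Mlx, a MAX-like partner, averaged 26.1 ± 7.90 CPM in AAV-delta-mut-p53 tumours, against 16.6 ± 1.03 CPM in AAV-Control tumours.

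Genes that MYC is known to activate lay on both sides of 0. Of 24 listed, 9 had a higher and 15 a lower mean in AAV-delta-mut-p53 tumours, 0 were called, and the median log2 fold change was -0.08. Without AAV-delta-mut-p53 2, the muscle-rich sample, 9 of the 24 were lower and the median was 0.08. Dkc1, which makes a pseudouridine synthase of the ribosome pathway, averaged 89.1 ± 30.1 CPM in AAV-delta-mut-p53 tumours, against 159 ± 44.2 CPM in AAV-Control tumours (log2 fold change -0.84, SE 0.34, edgeR FDR = 0.677). Shmt2, a mitochondrial serine enzyme, averaged 83.0 ± 24.6 CPM in AAV-delta-mut-p53 tumours, against 51.7 ± 24.5 CPM in AAV-Control tumours, and lies on the chromosome of Cdk4 in the region described below. Eif4e, the cap-binding translation factor, averaged 122 ± 32.0 CPM in AAV-delta-mut-p53 tumours, against 178 ± 68.1 CPM in AAV-Control tumours.

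Cyclin D1 RNA had a mean of 97.3 ± 38.9 CPM per kb of exon over all 9 tumours, above that of Cdk4 at 77.9 ± 24.6, a pair that overlapped within its spread. Ccnd1, on chromosome 7 from 144929931 to 144939925, was at 295, 97.0, 547, 589, 439 and 506 CPM across AAV-delta-mut-p53 1 to 6, against 444, 747 and 461 CPM in AAV-Control 1 to 3. The lowest value was that of AAV-delta-mut-p53 2, and the highest that of AAV-Control 2. Its log2 fold change was -0.42 (SE 0.48, edgeR FDR = 0.836), and it was -0.20 without AAV-delta-mut-p53 2 and -0.12 without AAV-Control 2. AAV-delta-mut-p53 2 also had the lowest sum of epithelial markers, at 259 CPM, and the part of cell content in its Ccnd1 value was not tested. Of the exon bases of Ccnd1, 23.4% also lie in LTO1 on the other strand, and no source used here states the strand setting of the counting.

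Cyclin D2 was highest in the 3 tumours with high Mycn. Ccnd2, on chromosome 6 from 127125162 to 127152193, was at 214, 100.3, 207, 264, 413 and 217 CPM across AAV-delta-mut-p53 1 to 6, against 821, 193 and 522 CPM in AAV-Control 1 to 3. Its 3 highest values were in AAV-delta-mut-p53 5, AAV-Control 1 and AAV-Control 3, the same 3 tumours that had the most Mycn, and AAV-Control 2 was below 5 of the 6 AAV-delta-mut-p53 tumours. Over the 9 tumours Pearson's r of log2 CPM between Mycn and Ccnd2 was 0.71 and Spearman's rho 0.63, given as a description.

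The mean of Ccnd2 was 236 ± 102 CPM in AAV-delta-mut-p53 tumours, against 512 ± 314 CPM in AAV-Control tumours (SD, n = 6 and 3). The log2 fold change was -1.12 (SE 0.48, 95% interval -2.17 to -0.07), with an unadjusted p of 0.0395 in edgeR's fit and an FDR of 0.677. The exact permutation p was 0.155. Without AAV-Control 1 the log2 fold change was -0.60, and without AAV-Control 2 it was -1.50. Endothelial markers also ran lower in AAV-delta-mut-p53 tumours, with 0 of 5 higher and sums of 100 to 295 CPM, against 205 to 475 CPM in AAV-Control tumours, and their part in the Ccnd2 values was not tested.

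The 3 D cyclins were compared per kilobase of exon. Ccnd1 made up 55.6% to 82.0% of the D cyclin sum in AAV-delta-mut-p53 tumours and 50.9% to 86.6% in AAV-Control tumours. Ccnd2 made up 15.5% to 31.0% in AAV-delta-mut-p53 tumours, against 11.2% to 47.1% in AAV-Control tumours, with the 2 highest shares in AAV-Control 1 and 3. Ccnd3, the third D cyclin, made up 1.88% to 4.83% in 5 of the AAV-delta-mut-p53 tumours and 15.7% in AAV-delta-mut-p53 2, against 1.43% to 2.23% in AAV-Control tumours. Its own level was 36.3 ± 8.6 CPM in AAV-delta-mut-p53 tumours, against 29.3 ± 8.59 CPM in AAV-Control tumours (SD, n = 6 and 3). The large share in AAV-delta-mut-p53 2 stands beside low Ccnd1 and Ccnd2 and the highest Ccnd3 of the 9 tumours, at 50.9 CPM. The summed D cyclin level was 117 ± 45.1 CPM per kb in AAV-delta-mut-p53 tumours, against 175 ± 16.2 CPM per kb in AAV-Control tumours, with 37.1 in AAV-delta-mut-p53 2 (exact permutation p = 0.131). Without that tumour, an alternative added after the data had been seen, the sum was 133 ± 25.3 CPM per kb in 5 AAV-delta-mut-p53 tumours (SD). The exact permutation p was then 0.0714 over 56 assignments.

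**Figure D3:**
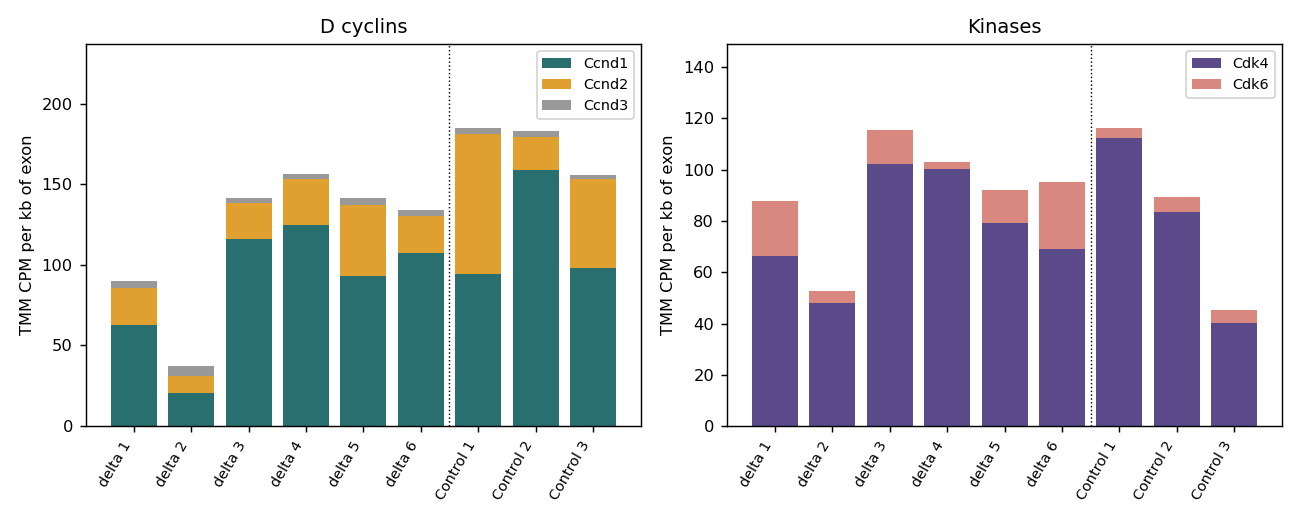
TMM CPM per kilobase of exon of the 3 D cyclins (left panel) and of Cdk4 and Cdk6 (right panel), stacked for each tumour, with the 6 AAV-delta-mut-p53 tumours (delta) left of the dotted line and the 3 AAV-Control tumours right of it. Ccnd2 is widest in AAV-Control 1 and 3, Cdk6 in AAV-delta-mut-p53 1 and 6, and both stacks are short in AAV-delta-mut-p53 2.

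Cdk4, a kinase partner of the D cyclins, varied least among the 9 genes. On chromosome 10 from 127063534 to 127067920, it was at 216, 155, 332, 326, 258 and 224 CPM across AAV-delta-mut-p53 1 to 6, against 365, 271 and 130 CPM in AAV-Control 1 to 3. The highest and the lowest value were both in control tumours. The log2 fold change was -0.02 (SE 0.37, 95% interval -0.84 to 0.80, edgeR FDR = 0.990), and it ran from -0.34 without AAV-Control 3 to 0.32 without AAV-Control 1, with 0.09 without AAV-delta-mut-p53 2. Of its exon bases 19.7% are shared with Tspan31 on the other strand. The log2 standard deviation of Cdk4, 0.50, was above that of 33.3% of tested protein-coding genes averaging 1 CPM or more. Over the 9 tumours Pearson's r of log2 CPM with Myc was 0.64 for Cdk4, with its 4 E-boxes, and -0.2 for Cdk6, with 1 E-box. Any part of the E-boxes in these values was not tested.

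The low Cdk4 of AAV-Control 3 was shared by the genes around it. Cdk4 was 0.98 below its 9-tumour median on the log2 scale there, and 9 of its 10 nearest tested protein-coding genes were more than 0.5 below theirs, with a median of -1.10. These counts are a description, made after the values had been seen. In the 2 Mb on the far side of Cdk4, 46 of 57 genes were more than 0.5 below their medians in AAV-Control 3 (median -0.93), while in the other 8 tumours between 3 and 11 of the 57 were. Toward the centromere the sign turned. Between 8 and 10 Mb from Cdk4, 11 genes had a median of 2.58 in AAV-Control 3, among them Mdm2, the ubiquitin ligase gene for p53, at 561 CPM, against 90.9 and 103 CPM in AAV-Control 1 and 2. The 24 genes between 10 and 20 Mb away had a median of 1.18. The tumour with the highest Mdm2 had the lowest Cdk4, on one chromosome. DNA was not analysed here.

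**Figure D4:**
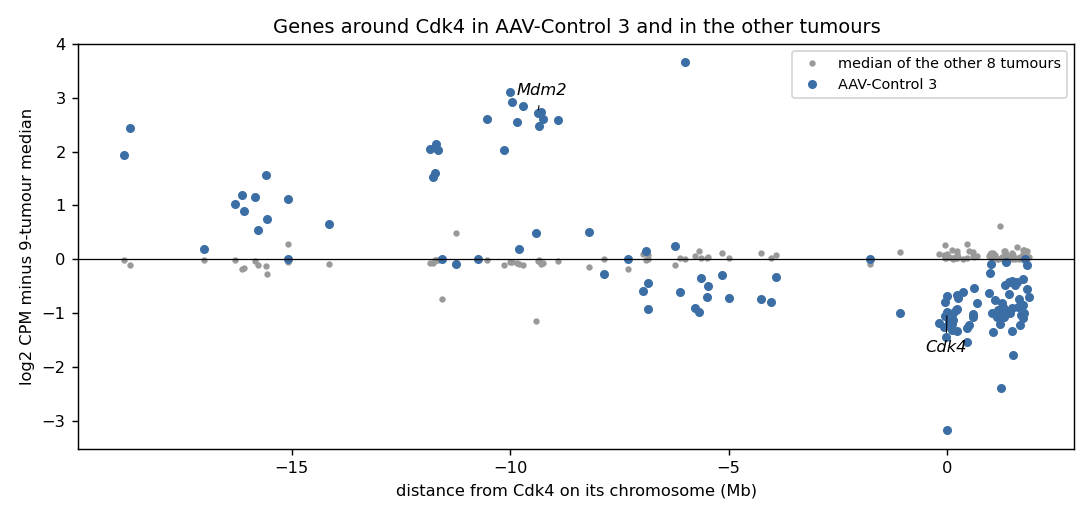
Log2 CPM minus the 9-tumour median (vertical axis) of protein-coding genes averaging 5 CPM or more, by distance from Cdk4 in Mb (horizontal axis), for AAV-Control 3 (large dots) and as the median of the other 8 tumours (small dots). In AAV-Control 3 genes near Mdm2 lie about 2.58 above the median and genes around Cdk4 about 0.93 below it.

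Cdk6, the second D cyclin kinase, had the largest positive fold change among the 9 genes, which did not pass the test. On chromosome 5 from 3341485 to 3531008, it was at 299, 67.4, 183, 38.8, 181 and 367 CPM across AAV-delta-mut-p53 1 to 6, against 58.2, 85.7 and 71.7 CPM in AAV-Control 1 to 3. Tumours 1, 3, 5 and 6 were above all controls, number 4 was below all of them, and number 2 lay among them. The pair with the shared title number, 4 and 5, differed here as they did in Mycn. The mean was 189 ± 127 CPM in AAV-delta-mut-p53 tumours, against 71.9 ± 13.8 CPM in AAV-Control tumours (SD, n = 6 and 3), a log2 fold change of 1.40 (SE 0.64, 95% interval -0.02 to 2.82). The FDR by edgeR was 0.677, and the exact permutation p was 0.202. The change ran from 1.10 to 1.61 when each tumour was left out in turn.

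Fam133b, the tested protein-coding gene nearest to Cdk6, lay closer to its own 9-tumour median in those tumours. It deviated by 0.00, -0.35, 0.17 and -0.41 on the log2 scale across AAV-delta-mut-p53 1, 3, 5 and 6, where Cdk6 deviated by 1.80, 1.09, 1.08 and 2.10. Cdk6 supplied 24.3%, 9.15%, 11.3%, 2.70%, 14.0% and 27.6% of the summed Cdk4 and Cdk6 level per kilobase in AAV-delta-mut-p53 1 to 6, against 3.57%, 6.85% and 11.4% in AAV-Control 1 to 3. Per kilobase, Cdk4 was the more abundant kinase RNA in all 9 tumours, by 2.63 times or more. This order depends on the exon lengths used, 3.249 kb for Cdk4 and 13.989 kb for Cdk6. In CPM, Cdk6 was above Cdk4 in AAV-delta-mut-p53 1 (299 against 216) and 6 (367 against 224). The 11.4% of AAV-Control 3 came with its low Cdk4.

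Other regulators of this step included Cdkn1c, which encodes the CDK inhibitor p57. It was at 3.15, 35.0, 1.22, 5.92, 40.9 and 1.14 CPM across AAV-delta-mut-p53 1 to 6, against 100.2, 72.7 and 115 CPM in AAV-Control 1 to 3. The groups did not overlap, which was so, in either direction, for 3.06% of all genes. The log2 fold change of -2.72 (SE 1.02) did not pass edgeR's test over all genes (FDR = 0.677, unadjusted p = 0.0231). Cdkn1b, which encodes the inhibitor p27, averaged 150 ± 40.9 CPM in AAV-delta-mut-p53 tumours, against 246 ± 93.3 CPM in AAV-Control tumours. Of 9 other G1 cyclins, kinases and CDK inhibitors, 4 had a higher and 5 a lower mean, at a median log2 fold change of -0.46.

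Cdkn2a makes 2 proteins from 2 first exons. In GENCODE M21, transcript Cdkn2a-201 starts in exon 89281986 to 89282192 of chromosome 4 and encodes INK4A, and Cdkn2a-202 starts in exon 89294334 to 89294653 and encodes ARF. Both run on into the second exon, 89276645 to 89276985. The junctions are printed to show that the same second exon follows both, with the last 40 coding bases of the first exon in lower case and the first 30 bases of the second in capitals, minus strand.
Cdkn2a-201: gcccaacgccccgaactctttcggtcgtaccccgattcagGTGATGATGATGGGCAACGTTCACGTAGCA
Cdkn2a-202: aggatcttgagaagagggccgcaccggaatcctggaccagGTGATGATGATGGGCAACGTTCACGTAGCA
The first exons hold 126 and 190 coding bases, which enter the second exon in different reading frames. Both transcripts share 49.1% of the gene's exon bases, 23.6% belong to Cdkn2a-201 alone and 27.3% to Cdkn2a-202 alone. Gene counts add them up, so the values below cannot be divided between INK4A and ARF.

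RNA of Cdkn2a was present in every tumour. It was at 31.3, 49.3, 71.4, 34.7, 20.7 and 58.7 CPM across AAV-delta-mut-p53 1 to 6, against 29.6, 27.4 and 14.9 CPM in AAV-Control 1 to 3. Of the 6 AAV-delta-mut-p53 tumours 5 were above all 3 controls, and number 5 fell among them. The mean was 44.4 ± 18.9 CPM in AAV-delta-mut-p53 tumours, against 23.9 ± 7.88 CPM in AAV-Control tumours (SD, n = 6 and 3), a log2 fold change of 0.89 (SE 0.43). It was not called (edgeR FDR = 0.677, exact permutation p = 0.119). Mtap, a neighbouring metabolic gene that is often deleted together with CDKN2A in human tumours, stayed between -0.51 and 0.66 of its median on the log2 scale in all 9 tumours.

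Cdkn2b, which encodes INK4B and lies beside Cdkn2a from 89306299 to 89311039, had 1 tumour far above the rest. It was at 21.5, 8.87, 28.3, 17.5, 11.1 and 63.6 CPM across AAV-delta-mut-p53 1 to 6, against 14.8, 15.1 and 10.1 CPM in AAV-Control 1 to 3. AAV-delta-mut-p53 6 held the highest value and number 2 the lowest. Its change on the log2 scale was 0.92 (SE 0.60, edgeR FDR = 0.707, exact permutation p = 0.345), and 0.39 without AAV-delta-mut-p53 6. Per kilobase, Cdkn2a exceeded Cdkn2b in all 9 tumours, by 1.10 times in AAV-delta-mut-p53 6 and 6.58 times in number 2, against 1.76 to 2.37 times in AAV-Control tumours.

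Known regulators of Cdkn2a were also listed, 12 in all, with 4 higher, 8 lower, 0 calls and a median log2 fold change of -0.18. Ets1, a transcription factor that can activate INK4A, averaged 197 ± 79.9 CPM in AAV-delta-mut-p53 tumours, against 93.2 ± 26.5 CPM in AAV-Control tumours (log2 fold change 1.08, SE 0.39, edgeR FDR = 0.677). Tbx3, a repressor of ARF, averaged 8.17 ± 6.00 CPM in AAV-delta-mut-p53 tumours, against 27.4 ± 17.1 CPM in AAV-Control tumours. Bmi1, the Polycomb repressor of the locus, averaged 78.2 ± 24.0 CPM in AAV-delta-mut-p53 tumours, against 109 ± 17.6 CPM in AAV-Control tumours. None of the 3 passed the test.

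Rb1, the pocket protein gene on chromosome 14 from 73183673 to 73325822, had the smallest exact permutation p of the 9 genes. It was at 57.7, 67.5, 32.0, 59.7, 44.0 and 112 CPM across AAV-delta-mut-p53 1 to 6, against 25.5, 40.4 and 34.5 CPM in AAV-Control 1 to 3. Of the 6 AAV-delta-mut-p53 tumours 5 were above all controls, and number 3 lay among them. The mean was 62.1 ± 27.4 CPM in AAV-delta-mut-p53 tumours, against 33.5 ± 7.51 CPM in AAV-Control tumours (SD, n = 6 and 3), a log2 fold change of 0.89 (SE 0.39, 95% interval 0.02 to 1.76). The unadjusted p in edgeR's fit was 0.0451 and the FDR 0.677, and the exact permutation p was 0.0714, or 0.838 adjusted over all genes. Without AAV-delta-mut-p53 6 the log2 fold change was 0.64.

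In AAV-delta-mut-p53 6, where Rb1 was 1.34 above its median on the log2 scale, 6 of its 10 nearest tested genes were more than 0.5 above theirs. Among them were Rcbtb2 at 1.09, Itm2b at 1.07, Fndc3a at 1.22 and the serotonin receptor gene Htr2a at 1.06. Rcbtb2 and Lpar6 lie on the other strand, over 8.1% and 6.8% of the exon bases of Rb1. A similar count of 6 of 10 was found in AAV-delta-mut-p53 2, where Rb1 deviated by 0.62. Such counts were not particular to Rb1. In AAV-delta-mut-p53 6 the count was also 6 of 10 around Myc and 7 of 10 around Mycn, which themselves deviated by -1.11 and -3.66.

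The other pocket proteins were not called. Rbl1, which encodes p107, averaged 57.2 ± 17.0 CPM in AAV-delta-mut-p53 tumours, against 63.7 ± 11.4 CPM in AAV-Control tumours. Rbl2, which encodes p130, averaged 37.3 ± 11.2 CPM in AAV-delta-mut-p53 tumours, against 28.5 ± 8.98 CPM in AAV-Control tumours. Of 12 pocket proteins, E2F and DP factors 5 had a higher and 7 a lower mean, at a median log2 fold change of -0.11. E2f4, the repressive E2F that works with pocket proteins in resting cells, was at 28.0 to 41.6 CPM in AAV-delta-mut-p53 tumours, against 20.2 to 25.8 CPM in AAV-Control tumours (log2 fold change 0.47, SE 0.27, edgeR FDR = 0.687). Its groups did not overlap, as was found, in either direction, for 3.06% of all genes. E2f7, an atypical repressor, averaged 15.6 ± 5.09 CPM in AAV-delta-mut-p53 tumours, against 25.5 ± 8.81 CPM in AAV-Control tumours, and Tfdp2, a partner of E2F, 85.8 ± 28.9 CPM in AAV-delta-mut-p53 tumours, against 123 ± 11.3 CPM in AAV-Control tumours.

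More of the genes that E2F activates were below than above their AAV-Control mean in AAV-delta-mut-p53 tumours, with 0 calls. Of 24 listed, 6 had a positive and 18 a negative log2 fold change, with a median of -0.25, against 0.088 for all genes. Without AAV-delta-mut-p53 2, where the list had a mean log2 CPM of 4.68, against 5.86 to 6.36 in the other 8 tumours, 14 of the 24 were negative. The median log2 fold change was then -0.08, against 0.05 for all genes. Mki67, the proliferation marker, averaged 702 ± 240 CPM in AAV-delta-mut-p53 tumours, against 1251 ± 273 CPM in AAV-Control tumours (log2 fold change -0.84, SE 0.36, edgeR FDR = 0.677). Tyms, thymidylate synthase, averaged 39.6 ± 15.5 CPM in AAV-delta-mut-p53 tumours, against 67.7 ± 5.47 CPM in AAV-Control tumours. Ccne2, cyclin E2, averaged 37.0 ± 17.4 CPM in AAV-delta-mut-p53 tumours, against 60.6 ± 22.3 CPM in AAV-Control tumours. AAV-delta-mut-p53 2 also had the highest sum of muscle markers, and the part of cell content in its low value for that list was not tested.

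The 9 genes could be ordered by abundance per kilobase of exon, with many neighbours that could not be ranked. Ccnd1 was above Cdk4 in 6 of 9 tumours, so these did not differ beyond their spread. Cdk4 was above Myc, at 47.2 ± 20.9 CPM per kb, in 9 of 9. Myc was above Ccnd2, at 34.8 ± 23.8, in 5 of 9, and Ccnd2 was above Cdkn2a, at 32.0 ± 15.8, in 3 of 9. These last 3 did not differ beyond their spread. Cdkn2b followed at 15.3 ± 12.2, below Cdkn2a in 9 of 9 tumours, then Cdk6 at 10.7 ± 8.35, Rb1 at 8.74 ± 4.36 and Mycn at 3.28 ± 4.63 CPM per kb. Cdkn2b was above Cdk6 in 7 of 9 tumours, Cdk6 above Rb1 in 4 of 9 and Rb1 above Mycn in 7 of 9, so these pairs were not ordered either.

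**Figure D5:**
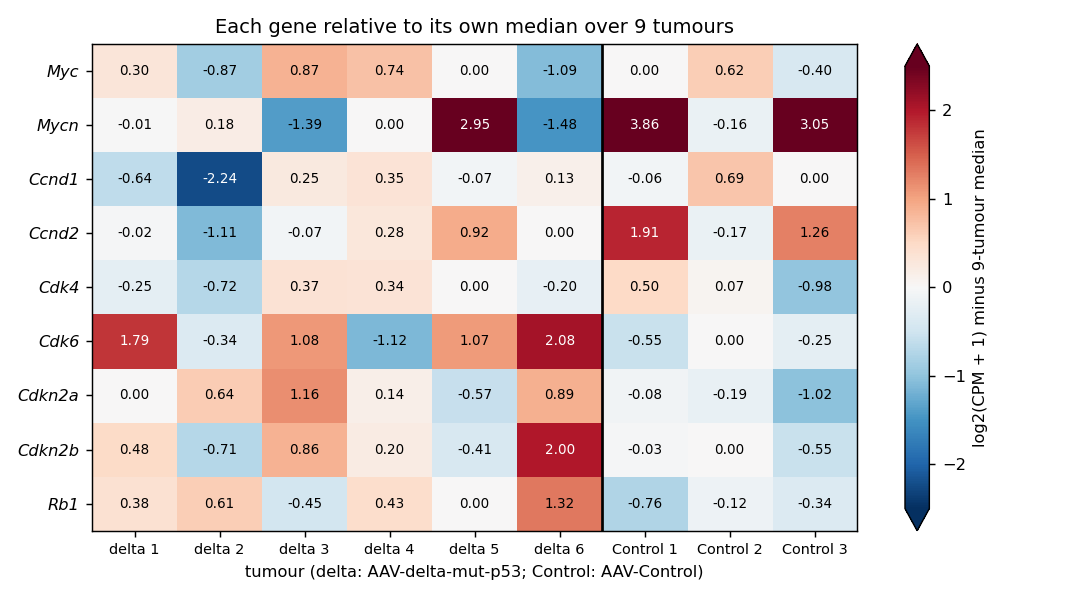
Log2(CPM + 1) of each gene minus its median over the 9 tumours, with the 6 AAV-delta-mut-p53 tumours (delta) left of the line and the 3 AAV-Control tumours right of it. Mycn reaches 2.95, 3.86 and 3.05 in AAV-delta-mut-p53 5, AAV-Control 1 and AAV-Control 3, where Ccnd2 is also highest, and AAV-delta-mut-p53 6 is highest in Cdk6, Cdkn2b and Rb1.

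Single tumours carried distinct combinations. AAV-delta-mut-p53 6 had the highest Cdk6, Cdkn2b and Rb1 of all 9 tumours and the lowest Myc. Its 2 reads of Mycn could not be ranked against the 3 reads of AAV-delta-mut-p53 3, as their counting intervals overlap. AAV-delta-mut-p53 3 had the highest Myc and Cdkn2a. AAV-Control 1 had the highest Mycn, Ccnd2 and Cdk4 and the lowest Rb1. AAV-Control 3 had the lowest Cdk4 and Cdkn2a, and AAV-Control 2 the highest Ccnd1. Across the 9 tumours r of log2 CPM was -0.83 between Mycn and Cdkn2a, -0.77 between Mycn and Cdkn2b and 0.63 between Cdkn2a and Cdkn2b. Spearman's rho was -0.67, -0.8 and 0.6 for the same pairs. These are descriptions over tumours that share libraries and scaling, and among 36 pairs some r are large by choice of the pair.

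For each gene the 3 protein-coding genes with the most similar log2 CPM over the 9 tumours were looked up among 13947 genes averaging 1 CPM or more. Myc was most like Zbtb2 (Pearson's r 0.966), AW209491 and Apex1, a DNA repair nuclease. Mycn was most like Tmem169 (0.977), Ercc6 and Tspan18. Ccnd1 was most like Pbk (0.982), a mitotic kinase, Ubqln1 and Polr2d, and its r with Pbk was 0.83 without the 2 tumours farthest from the median of Ccnd1. Ccnd2 was most like Bpifb5 (0.957), Gm17018 and Dph3. Cdk4 was most like Sbk1 (0.954), Fam207a and Zc3h4. Cdk6 was most like Anapc1 (0.937), Atp6v1c1 and Sys1. Cdkn2a was most like Piezo1 (0.983), a mechanically gated channel, Carmil2 and Ints9, and Cdkn2b was most like Prrg4 (0.969), Dcaf4 and Sertad2. Rb1 was most like Gab1 (0.958), an adaptor of receptor kinases, Acot9 and Dpp7. With so many genes and 9 tumours, the most similar genes have a high r by the way they are picked.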

How the data were processed

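Strand-specific total RNA libraries of 9 frozen mouse breast tumours were sequenced, per the labels' protocols. The values used are the raw counts of reads per gene that the authors deposited in 1 table, all whole numbers, with 0 columns left out. STAR 2.6.0b, DESeq2 and GRCm38 are named in the submitters' processing notes; its counting program, strand setting and annotation release were not given in the sources used here.

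Counts were scaled by TMM and filtered with filterByExpr (minimum count 10) in edgeR 4.0.16 under R 4.3.3, which left 19606 genes. Groups were compared by edgeR's 2-sided quasi-likelihood test with no covariate, adjusted by the Benjamini-Hochberg method over all of these genes. The exact 2-sided permutation test used log2(CPM + 1) for each gene over 84 assignments. Limma 3.58.1 (voom) and DESeq2 1.42.0 were alternatives, and edgeR and DESeq2 were tested on simulated data. Totals of 18581545 to 30953250 counts set the precision of low genes such as Mycn. Symbols were found for 49326 of 49585 identifiers. Gene lengths and positions came from GENCODE M21, in which the identifiers of Mycn and Cdkn2b have another version. Deviations of single genes are log2 CPM (prior count 2) minus the 9-tumour median. No 2 tumours of a group were alike within sampling noise.

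The 9 genes and the 14 gene lists, 6 of them cell type markers, were chosen with earlier results of these data known. Named genes are the 9, at most 3 genes of each pathway list with the smallest unadjusted p, Ccnd3, Rbl1, Rbl2, Mdm2 and Trp53, the 3 genes most like each of the 9, and their nearest 5 tested protein-coding genes on each side where a tumour was over 1 log2 unit from the median. Ddx1 and Mtap were singled out among those neighbours for their known ties to the 9. Not all genes under the rule are reported here.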

Additional observations from a re-analysis of the deposited data

Results flagged for a closer look

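Among 30 sets of 6 AAV-delta-mut-p53 values, 7 had a tumour that stood far from the other 5 by Dixon's criterion. Its chance rate of about 1 set in 20 holds for independent sets of normally distributed values. Here CPM, shares and ratios were not log-transformed and some sets share genes, so the 7 flags are a description and cannot be set against that rate. The AAV-Control group of 3 was too small for the criterion. Mycn was flagged for AAV-delta-mut-p53 5 at 22.2 CPM, and the share of Mycn in the summed Myc and Mycn level per kilobase for the same tumour at 13.8%. Cdkn2b was flagged for AAV-delta-mut-p53 6 at 63.6 CPM. The other 4 flags concerned AAV-delta-mut-p53 2: the share of Ccnd3 among the D cyclins at 15.7%, the ratio of Cdkn2a to Cdkn2b per kilobase at 6.58, the mean log2 CPM of the E2F-activated genes at 4.68 (the lowest), and that of the leukocyte markers at 5.97 (the highest). That tumour also had the highest sums of skeletal muscle, fibroblast, adipocyte and leukocyte markers, at 38200, 7730, 273 and 966 CPM, and their part in these values was not tested.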

How the results depend on the processing

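With 18 other settings, 0 of the 9 genes were called in any of them, and 7 of the 9 kept their direction throughout. The exceptions were Myc and Cdk4, both near 0. Myc was -0.04 with the pair of tumours that share a title number summed, and it ran from -0.18 to 0.37 when each tumour was left out. Cdk4 ran from -0.34 to 0.32. By limma voom Mycn was at -3.78, against -2.25 in the main fit. Over the 9 tumours left out in turn, Mycn ran from -4.09 to -1.42, Ccnd2 from -1.50 to -0.60 and Cdk6 from 1.10 to 1.61, and the smallest FDR of any of the 9 genes was 0.336, for Mycn without AAV-delta-mut-p53 5. A count of 104 genes was called by DESeq2 where edgeR called 0, and 1387 genes were at an unadjusted p under 0.05 in edgeR, with 2443 where no filter was used and more genes were tested. Leaving out single tumours gave 874 (without AAV-Control 2) to 2009 (without AAV-delta-mut-p53 5). In an alternative added after the data had been seen, without AAV-delta-mut-p53 2, 9 MYC-activated genes were lower in place of 15, and 1 adipocyte and 0 fibroblast markers were higher in place of 3 and 2; the cause was not tested. No paired analysis was possible because the labels give the groups no shared replicate numbers. Depth limits Mycn in the tumours with 2 and 3 reads, where a level can be given only within its counting interval.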

Other observations

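Other drivers of tumour growth were measured in the same 9 tumours. Of 14 other oncogenes 7 had a higher and 7 a lower mean in AAV-delta-mut-p53 tumours, with 0 calls by edgeR and a median log2 fold change of -0.03. Met, the receptor of hepatocyte growth factor, was at 147, 119, 9737, 140, 121 and 511 CPM across AAV-delta-mut-p53 1 to 6, against 63.2, 107 and 48.9 CPM in AAV-Control 1 to 3. Every AAV-delta-mut-p53 tumour was above every AAV-Control tumour, and 3.06% of all genes had groups without overlap in either direction. AAV-delta-mut-p53 3, the tumour with the highest Myc and Cdkn2a, was far above the rest. Met did not pass edgeR's test over all genes (log2 fold change 4.62, SE 1.86, FDR = 0.677). Hras, a RAS gene, averaged 59.4 ± 31.8 CPM in AAV-delta-mut-p53 tumours, against 121 ± 49.8 CPM in AAV-Control tumours (SD, n = 6 and 3).

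Of 16 other tumour suppressors 6 had a higher and 10 a lower mean, at a median log2 fold change of -0.09. Brca2, a DNA repair gene, averaged 36.6 ± 11.5 CPM in AAV-delta-mut-p53 tumours, against 52.3 ± 2.13 CPM in AAV-Control tumours. Tsc1, a brake on mTOR signalling, averaged 52.7 ± 14.9 CPM in AAV-delta-mut-p53 tumours, against 36.7 ± 4.82 CPM in AAV-Control tumours. The marker lists had 0 calls. In AAV-delta-mut-p53 tumours 4 of 8 epithelial, 7 of 7 skeletal muscle, 3 of 5 adipocyte, 2 of 5 fibroblast, 0 of 5 endothelial and 4 of 5 tested leukocyte markers had a positive log2 fold change. Without AAV-delta-mut-p53 2 these counts were 5, 6, 1, 0, 0 and 4 in the same order, and the median log2 fold change was 0.69 in place of 6.03 for the muscle markers, -0.48 in place of 1.36 for the adipocyte markers and -1.66 in place of -0.17 for the fibroblast markers.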
